A study of Homo sapiens with 60 samples.

Results

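The p53 target genes described here are 32 protein-coding genes from a list of well known transcriptional targets of the tumour suppressor p53, all of which were found by symbol among the 60675 Ensembl gene IDs of the deposited count table. On the GRCh38 assembly with GENCODE 29 gene bounds, CDKN1A lies at chr6:36676460-36687339, MDM2 at chr12:68808176-68850686, FDXR at chr17:74862497-74873031, DDB2 at chr11:47214465-47239240, SESN2 at chr1:28259527-28282491 and GDF15 at chr19:18374731-18389176. The members were followed in 60 RNA-seq libraries of A549, an established human lung adenocarcinoma line that carries wild-type p53 and lacks CDKN2A. Before RNA was taken, the cells had stood for 24 h in vehicle or in 1 of 3 doses of a herbal extract, of which 8 were used. Of the 32 members, SESN2, GDF15 and TNFRSF10B are also driven by ATF4, the transcription factor of the integrated stress response, and they are given apart from the other 29. The groups, each at 24 h, were as follows. Sayeok-tang and Bojungikgi-tang, which are multi-herb formulas, were given as water extracts at 20, 100 and 500 µg/mL, with 3 libraries per dose of Sayeok-tang and 2 of Bojungikgi-tang. Ethanol extracts of Zingiberis Rhizoma (dried ginger), Zingiberis Rhizoma Recens (fresh ginger) and Pinelliae Tuber (Pinellia) were given at the same 3 doses, with 3 libraries each. The ethanol extract of Scutellariae Radix (Scutellaria) was given at 7.6, 38 and 190 µg/mL, with 3 libraries each. Ethanol extracts of Coptidis Rhizoma (Coptis; 4.4, 22 and 110 µg/mL) and Zizyphi Fructus (Zizyphus; 20, 100 and 500 µg/mL) had 1 library per dose. The vehicle group held 3 libraries, and the sample labels give its DMSO content as 0.1% while the series text gives 2%. The series text states that extracts with an IC20 under 500 µg/mL were used at that IC20 as the high dose, so the high doses of Scutellaria and Coptis are lower in mass than the others. It also names a wortmannin control, which is not analysed here.

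p53 is a transcription factor that is held at a low level by the ubiquitin ligase MDM2, itself a p53 target. When DNA damage or other stress stabilises it, p53 turns on genes that stop the cell cycle, repair DNA, promote apoptosis and change metabolism, and its target p21, encoded by CDKN1A, leads to repression of cell cycle genes through the DREAM complex. ATF4 is translated more when eIF2α is phosphorylated, and it turns on genes of amino acid supply and of the response to misfolded protein.

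The counts of a library summed to between 17.51 and 38.54 M, with a median of 23.53 M. No member had fewer than 58 counts in any library, and all 32 passed the filter on low counts in every comparison. Mitochondrially encoded genes took 8.29% to 15.9% of the counts, with the highest shares in the medium (15.9%) and low (15.0%) doses of Coptis. The share was 10.2% to 11.1% in high-dose Sayeok-tang, 9.89% to 10.8% in high-dose Bojungikgi-tang and 9.70% to 10.5% in high-dose dried ginger, each above the 8.58% to 9.38% of vehicle without overlap, and its part in the results of these groups was not tested. Of the A549 and epithelial markers, KRT8, KRT18, AKR1B10 and AKR1C2 were at 1537 CPM or more in every library. EPCAM (3.84 to 6.54 CPM) and CDH1 (20.75 to 37.74 CPM), from the same list, were far lower but detected in all 60 libraries. CDKN2A was at 0 in all 60. Of 8 markers of blood, endothelium, fibroblasts and liver, CD3E was at 0 throughout, and PTPRC, PECAM1, CDH5, DCN and ALB reached at most 0.171 CPM, whereas CD68 (5.09 to 16.9 CPM) and COL1A1 (17.4 to 36.0 CPM) were detected in all 60 libraries. In bulk RNA, a shift in the number of cells of a kind and a shift in RNA per cell cannot be told apart. The labels do not say whether replicates are separate cultures, so the p-values reflect the variation among these libraries, part of which may be technical. Vehicle and extract libraries carry different set numbers, so handling and treatment cannot be told apart in comparisons with vehicle. High against low dose of 1 extract does not use the vehicle levels.

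In vehicle libraries the members spanned a wide range of levels, here as CPM per kb of annotated exon sequence (mean ± SD, n = 3). The length is that of all annotated exons of a gene together, not of the transcript expressed, and the order depends on it. RPS27L, with 213.7 CPM on average in vehicle and 9127 bases of exon, ranked 8. TP53I3, a quinone oxidoreductase, had 51.5 ± 1.56 CPM per kb, and BAX, a pore-forming activator of apoptosis, had 50.5 ± 3.44 CPM per kb. The vehicle libraries of these 2 genes overlapped. CDKN1A followed at 35.8 ± 0.548 CPM per kb and did not overlap with BAX above it or with the cyclin G gene CCNG1 below it at 33.3 ± 0.901 CPM per kb. MDM2 had 13.6 ± 0.254 CPM per kb, GDF15 had 10.9 ± 1.057, SESN2 had 4.00 ± 0.376 and BBC3, which encodes the BH3-only protein PUMA, had 1.89 ± 0.162 CPM per kb. SPATA18, a gene of mitochondrial quality control, was lowest at 0.705 ± 0.0281 CPM per kb. Of the 31 neighbouring pairs in this order, 16 overlapped between their vehicle libraries and so did not differ beyond their spread.

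**Figure D1:**
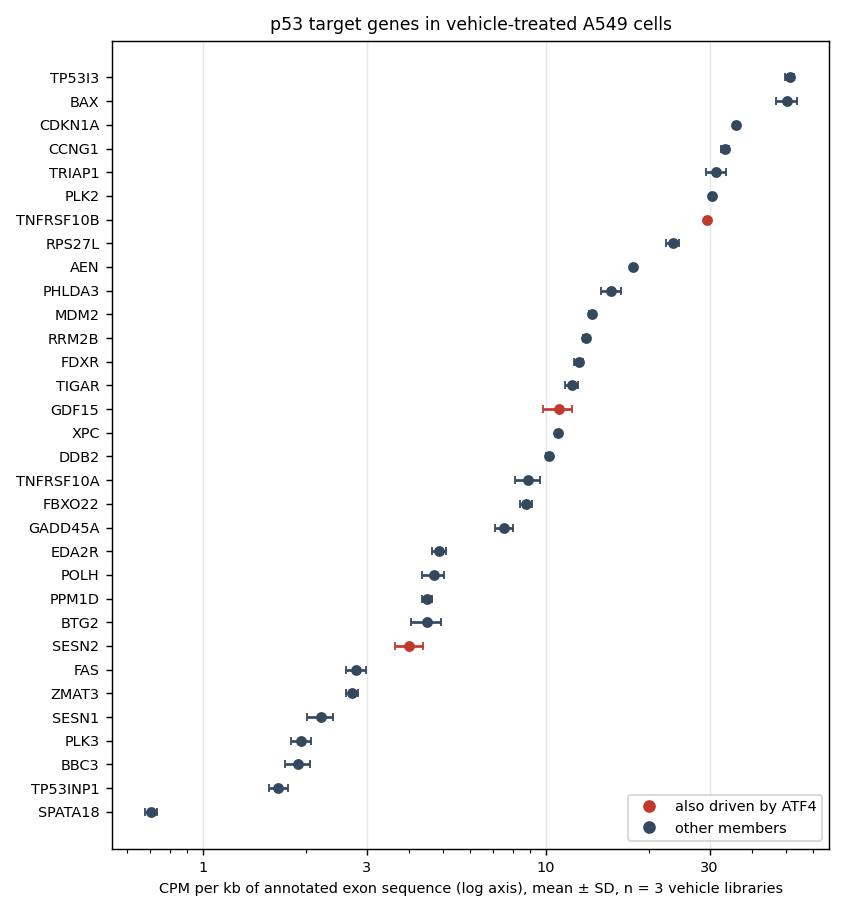
Level of each of the 32 p53 target genes in the 3 vehicle libraries, as CPM per kb of all annotated exon sequence on a log axis. Points are means and bars are SD. The order runs from TP53I3 (51.5 CPM per kb) at the top to SPATA18 (0.705 CPM per kb) at the bottom, and the 3 genes also driven by ATF4 are in red.

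Across the 25 groups, the highest group mean of 9 of the 32 members was 1.13 to 1.24 times the lowest, among them RPS27L (1.16-fold), FBXO22 (1.15-fold) and RRM2B (1.13-fold). SESN2 varied most, with a group mean of 56.1 CPM in the 1 Coptis high-dose library and 12.3 CPM at the medium dose of fresh ginger, a ratio of 4.55. BBC3 (2.69-fold), GDF15 (2.68-fold) and GADD45A (2.37-fold) came next. The highest group mean of 20 members was in the Coptis high-dose library, and that of MDM2, FDXR, DDB2, PHLDA3, RRM2B and ZMAT3 was in the Scutellaria high-dose group. The Coptis value is that of 1 library and is not averaged over replicates. The share of all genes highest in each group was not computed, so these counts do not set the members apart from other genes.

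Scutellaria at 190 µg/mL gave the broadest change among the 6 replicated extracts. Of the 32 members, 18 were higher and 2 lower than in vehicle, which is 62.5% of the members, beside 40.3% of all 16582 genes tested, 20.2% higher and 20% lower (edgeR quasi-likelihood F-test, Benjamini-Hochberg adjusted p under 0.05). Of the 29 members without those also driven by ATF4, 15 were higher and 2 lower. The median log2 change was 0.17 over the 32 members and 0.12 over the 29, beside 0.008 over all genes. Against the low dose of Scutellaria (7.6 µg/mL), 21 members were higher and 1 lower (68.75% of the members, beside 31% of all genes, 15.5% higher and 15.6% lower), and of the 29 these were 18 and 1. Of these 22 calls, 7 (BTG2, FBXO22, PLK2, PLK3, RRM2B, TP53INP1 and XPC) were lost when 1 or more of the 6 libraries compared were left out, and the count was then 16 to 21. The libraries that mattered were high-dose replicates 2 and 3 and low-dose replicates 1 and 2 for BTG2, high-dose 2 and 3 and low-dose 3 for FBXO22, high-dose 2 and 3 and low-dose 1 for PLK3, high-dose 2 and low-dose 3 for RRM2B, high-dose 2 for TP53INP1, and high-dose 1 and 3 and low-dose 1 and 3 for XPC (adjusted p = 0.0530 to 0.213). The 8 markers of other cell types summed to 27.7 to 29.8 CPM in high-dose Scutellaria, against 35.9 to 40.1 CPM in vehicle, with COL1A1 lower by 0.55 ± 0.06 on the log2 scale, and the 6 other than CD68 and COL1A1 summed to at most 0.0847 CPM, against at most 0.163 CPM in vehicle. The part of COL1A1 in these results was not tested.

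Among the cell cycle arrest genes, CDKN1A had 138, 152 and 149 CPM in the high-dose Scutellaria libraries, against 108, 111 and 109 CPM in the vehicle libraries. The lowest treated library lay above the highest vehicle library. The log2 change was 0.42 ± 0.04 (SE, n = 3 each; 1.34-fold; edgeR adjusted p = 8.83e-12), and it was 0.52 ± 0.04 against the low dose, whose libraries had 102, 95.7 and 108 CPM. GADD45A, a stress gene that acts on cell cycle and repair proteins, had 29.2, 31.1 and 27.6 CPM in the high-dose libraries, against 14.6, 16.4 and 15.8 CPM in vehicle, again with no overlap. Its log2 change was 0.91 ± 0.07 (1.87-fold; edgeR adjusted p = 6.56e-14). PLK3, a stress-responsive Polo-like kinase, rose by 0.33 ± 0.10 on the log2 scale. Its relative PLK2 went the other way, with 130, 131 and 134 CPM in high-dose Scutellaria, against 145, 145 and 146 CPM in vehicle (log2 change -0.14 ± 0.03, edgeR adjusted p = 0.000195). Against the low dose, PLK2 fell by 0.09 ± 0.03 on the log2 scale (edgeR adjusted p = 0.0300), and that call was lost when high-dose replicate 1 or 2 or low-dose replicate 2 or 3 was left out (adjusted p = 0.0692 to 0.130). BTG2 and CCNG1 did not differ from vehicle past the test.

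The feedback genes moved unevenly. MDM2 had 203, 227 and 213 CPM in high-dose Scutellaria, 164, 166 and 158 CPM in low-dose Scutellaria, and 181, 184 and 177 CPM in vehicle. All 3 high-dose libraries lay above, and all 3 low-dose libraries below, the vehicle libraries. MDM2 was thus 0.25 ± 0.03 higher than vehicle on the log2 scale at the high dose (1.19-fold; edgeR adjusted p = 2.58e-07) and 0.40 ± 0.04 higher than at the low dose (1.32-fold; edgeR adjusted p = 8.02e-12). FBXO22, a ubiquitin ligase subunit, was higher by 0.10 ± 0.04 on the log2 scale (edgeR adjusted p = 0.0284), a call lost without high-dose replicate 2 or 3 or vehicle replicate 1 or 3 (adjusted p = 0.0731 to 0.123). The phosphatase gene PPM1D (WIP1), which switches the p53 response off, was not called.

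Of the 14 apoptosis genes, 7 rose above vehicle and 1 fell, beside 20.2% of all genes higher and 20% lower. BBC3 had 11.6, 11.1 and 10.1 CPM in the high-dose libraries, against 6.22, 5.44 and 6.41 CPM in vehicle, with no overlap and a log2 change of 0.86 ± 0.11 (1.82-fold; edgeR adjusted p = 2.6e-08). The death receptor gene FAS rose by 0.39 ± 0.07 and EDA2R by 0.59 ± 0.06 on the log2 scale. PHLDA3, an inhibitor of AKT (0.30 ± 0.05), TP53INP1, a stress protein that acts on p53 (0.48 ± 0.09), and SPATA18 (0.57 ± 0.13) rose as well. TNFRSF10B, the TRAIL receptor DR5, had 243.5, 253 and 246.5 CPM, against 155, 151 and 151 CPM in vehicle (0.70 ± 0.03, 1.63-fold; edgeR adjusted p = 5.06e-21). TNFRSF10A, the other TRAIL receptor, BAX, the exonuclease gene AEN, TP53I3, RPS27L and ZMAT3 were not called against vehicle. TRIAP1, an inhibitor of apoptosis, fell by 0.16 ± 0.05 (edgeR adjusted p = 0.0168) with overlapping libraries, and this call was lost without vehicle replicate 2 or 3 or high-dose replicate 2 (adjusted p = 0.0641 to 0.178). Against the low dose, 9 of the 14 rose and none fell, beside 15.5% of all genes higher and 15.6% lower. BAX (0.19 ± 0.04) and AEN (0.17 ± 0.04) were now among those that rose.

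Of the 4 DNA repair genes, 3 rose above vehicle and none fell, beside 20.2% of all genes higher and 20% lower. DDB2, the damage recognition subunit of nucleotide excision repair, had 58.5, 62.4 and 60.8 CPM in high-dose Scutellaria, against 50.8, 48.9 and 50.6 CPM in vehicle, with no overlap (log2 change 0.27 ± 0.04, 1.21-fold; edgeR adjusted p = 7.77e-07). XPC, which also recognises damage, rose by 0.18 ± 0.04 and RRM2B, a ribonucleotide reductase subunit, by 0.16 ± 0.04 on the log2 scale, whereas the translesion polymerase gene POLH was not called. Among the metabolic and secreted products, FDXR, the mitochondrial ferredoxin reductase, had 57.4, 52.2 and 50.1 CPM, against 43.4, 44.8 and 46.2 CPM in vehicle (0.25 ± 0.05, 1.19-fold; edgeR adjusted p = 0.000117). SESN2, a brake on mTORC1, had 37.4, 39.9 and 43.0 CPM, against 14.0, 12.4 and 15.0 CPM in vehicle (1.54 ± 0.06, 2.92-fold; edgeR adjusted p = 6.83e-22). GDF15, a secreted stress cytokine, had 44.0, 44.1 and 41.5 CPM, against 21.2, 21.7 and 25.3 CPM in vehicle (0.93 ± 0.06, 1.91-fold; edgeR adjusted p = 2.43e-15). For these 3 genes every high-dose library lay above every vehicle library. SESN1, the sestrin not on the list of ATF4-driven members, and TIGAR, a fructose bisphosphatase, were not called.

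**Figure D2:**
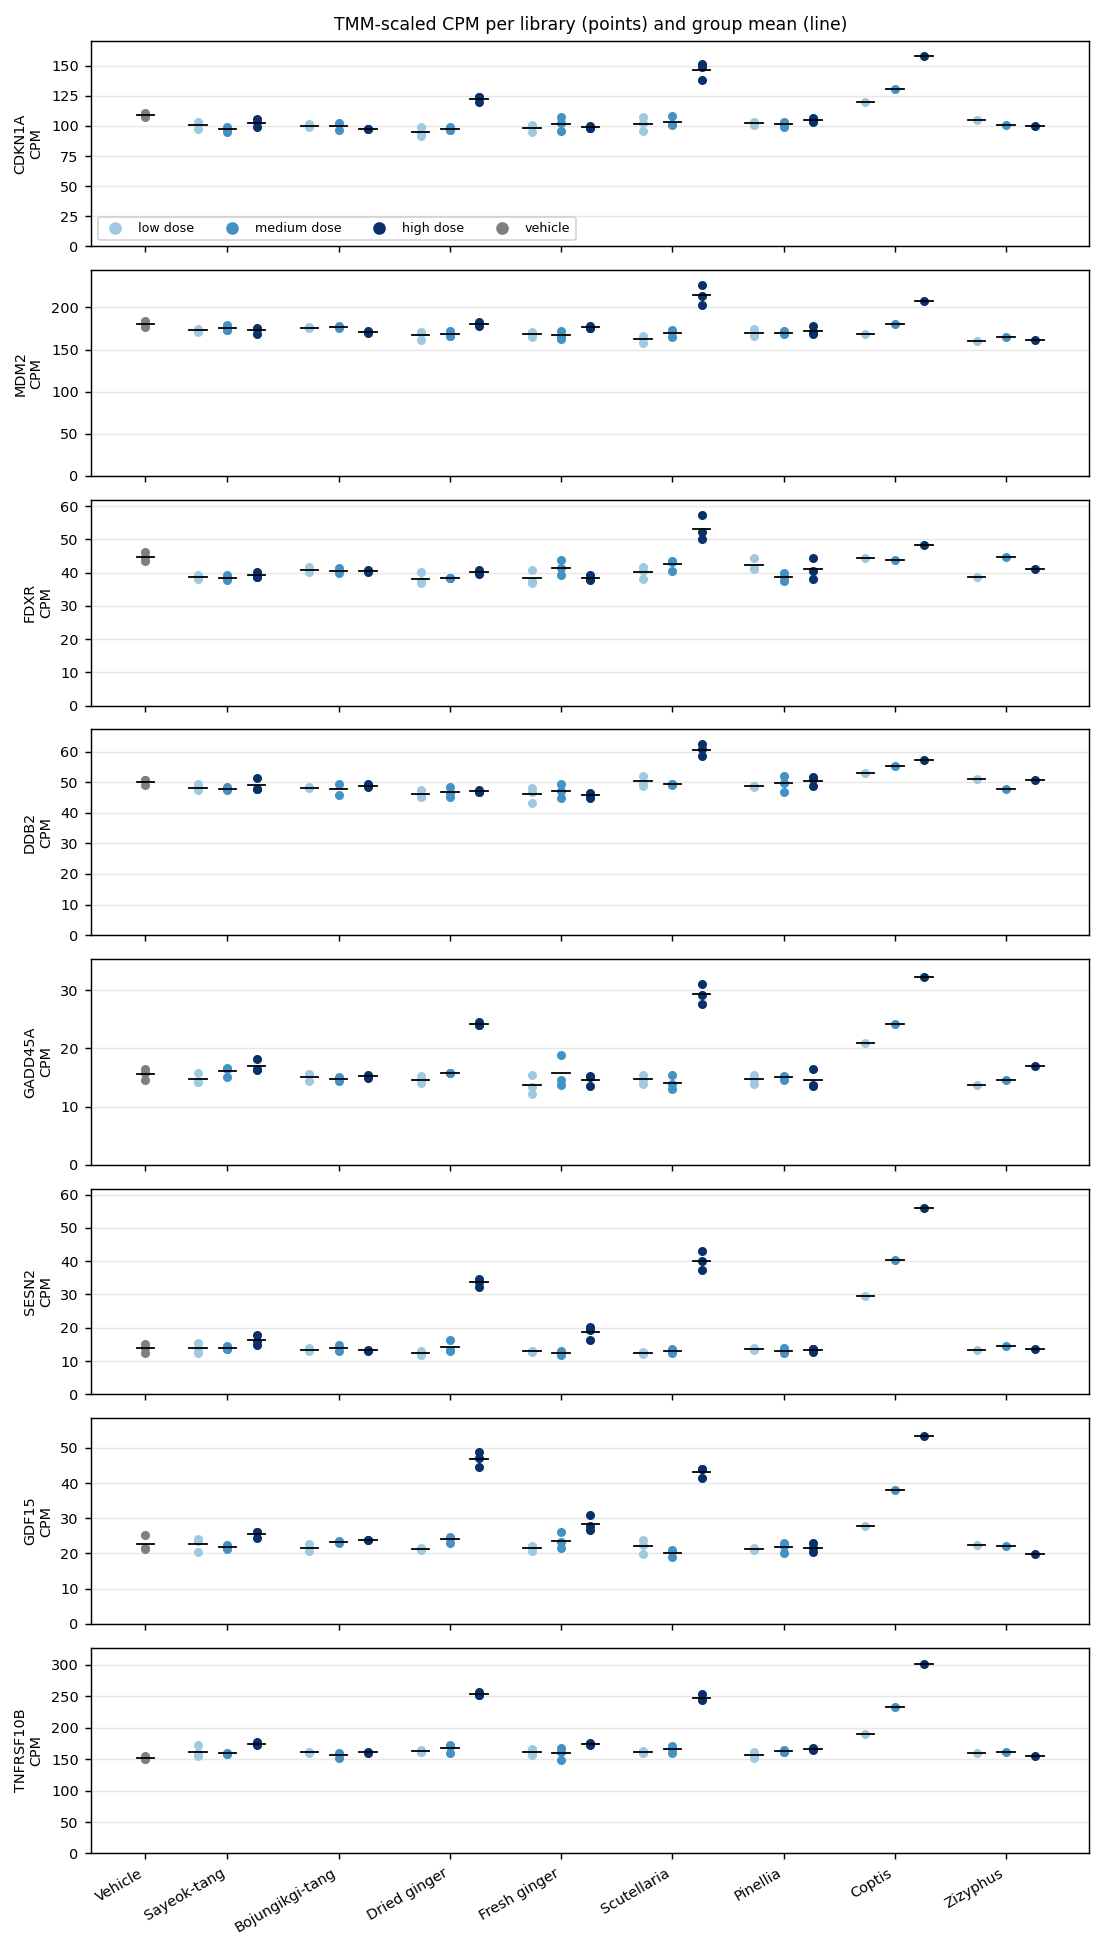
TMM-scaled CPM of 8 members in every library (points) with the group mean (line), vehicle at the left and each extract from low to high dose. CDKN1A, GADD45A, SESN2, GDF15 and TNFRSF10B stand above vehicle in high-dose Scutellaria and dried ginger, whereas MDM2, FDXR and DDB2 stand above it in high-dose Scutellaria (FDXR 50.1 to 57.4 CPM) and not in high-dose dried ginger (FDXR 39.5 to 40.9 CPM).

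In dried ginger at 500 µg/mL, 12 of the 32 members were higher than in vehicle and 6 lower, 56.25% of the members beside 39.2% of all 16628 genes tested, 20.2% higher and 19% lower. Without the 3 also driven by ATF4, 9 of 29 were higher and 6 lower, and the median log2 change of the 29 was 0.03, beside 0.009 over all genes. Against the low dose of dried ginger (20 µg/mL), 14 were higher and 3 lower (53.12% of the members, beside 32.8% of all genes, 16.8% higher and 16% lower). Leaving out each of the 6 libraries in turn gave 13 to 16 calls, with FAS, MDM2, PHLDA3, PLK2 and POLH the members lost in 1 or more of these fits.

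The 3 members also driven by ATF4 led. SESN2 had 34.8, 33.8 and 32.3 CPM in high-dose dried ginger, against 14.0, 12.4 and 15.0 CPM in vehicle (log2 change 1.28 ± 0.08, 2.44-fold; edgeR adjusted p = 8.34e-14). GDF15 had 47.0, 48.9 and 44.5 CPM, against 21.2, 21.7 and 25.3 CPM in vehicle (1.04 ± 0.07, 2.06-fold; edgeR adjusted p = 2.17e-13). TNFRSF10B had 257.5, 252 and 252 CPM, against 155, 151 and 151 CPM in vehicle (0.74 ± 0.04, 1.67-fold; edgeR adjusted p = 4.87e-15). In none of the 3 genes did the groups overlap. GADD45A had 24.6, 24.0 and 24.0 CPM, against 14.6, 16.4 and 15.8 CPM in vehicle (0.63 ± 0.08, 1.55-fold; edgeR adjusted p = 3.92e-07), and BBC3 had 8.79, 9.97 and 8.68 CPM, against 6.22, 5.44 and 6.41 CPM in vehicle (0.60 ± 0.09, 1.51-fold; edgeR adjusted p = 7.19e-06).

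CDKN1A was higher by less: 119.6, 124 and 124 CPM in high-dose dried ginger, against 108, 111 and 109 CPM in vehicle, without overlap (0.17 ± 0.04, 1.12-fold; edgeR adjusted p = 0.00158). Against the low dose (93.7, 99.3 and 91.3 CPM) it was higher by 0.37 ± 0.04 on the log2 scale. MDM2 had 178, 183 and 180.5 CPM in high-dose dried ginger, inside the range of the vehicle libraries (177 to 184 CPM), with a log2 change of -0.0013 (95% interval -0.07 to 0.07; edgeR adjusted p = 0.984). It was 0.11 ± 0.04 above the low dose (edgeR adjusted p = 0.0169), a call lost without high-dose replicate 2 (adjusted p = 0.0554) or low-dose replicate 3 (adjusted p = 0.0985). PLK3, FAS, TNFRSF10A, TP53INP1, EDA2R and SPATA18 rose against vehicle by 0.28 to 0.37 on the log2 scale. The call was lost for PLK3 without high-dose replicate 2 or vehicle replicate 1 (adjusted p = 0.0719 and 0.114) and for SPATA18 without high-dose replicate 1 or 2 or vehicle replicate 1 or 2 (adjusted p = 0.0600 to 0.161).

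The 6 members that fell against vehicle in high-dose dried ginger came from several roles. AEN fell by 0.17 ± 0.04, CCNG1 by 0.20 ± 0.04, TRIAP1 by 0.27 ± 0.06, PPM1D by 0.18 ± 0.05, FDXR by 0.16 ± 0.05 and POLH by 0.26 ± 0.09 on the log2 scale (edgeR adjusted p = 0.000354 to 0.0201). For CCNG1 the libraries had 89.5, 87.1 and 93.1 CPM, against 101, 106 and 102.5 CPM in vehicle, and for PPM1D 19.5, 19.5 and 20.9 CPM, against 22.1, 22.6 and 23.6 CPM in vehicle. Neither overlapped. Of these 6, CCNG1 (by 0.24 ± 0.04), PPM1D (by 0.26 ± 0.05) and POLH (by 0.25 ± 0.09) fell also against the low dose, while FDXR, AEN and TRIAP1 did not differ from the low dose past the test. The POLH call against vehicle was lost without high-dose replicate 2 or vehicle replicate 2 or 3 (adjusted p = 0.0528 to 0.120), and that against the low dose without high-dose replicate 1 or 2 or low-dose replicate 3 (adjusted p = 0.0667 to 0.192). Among markers of other cell types, the macrophage and lysosome gene CD68 was higher in high-dose dried ginger (16.4 CPM on average, against 6.23 CPM in vehicle), while the 8 markers summed to 34.9 to 36.8 CPM, against 35.9 to 40.1 CPM in vehicle, and the 6 markers other than CD68 and COL1A1 summed to at most 0.158 CPM, against at most 0.163 CPM in vehicle. COL1A1 was lower by 0.72 ± 0.07 on the log2 scale. The part of CD68 and COL1A1 in these results was not tested. The keratin genes KRT8 (1977 CPM, against 3583 CPM in vehicle) and KRT18 (1565 CPM, against 2763 CPM in vehicle) were also lower in high-dose dried ginger (edgeR adjusted p = 5.62e-15 and 4.35e-14).

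**Figure D3:**
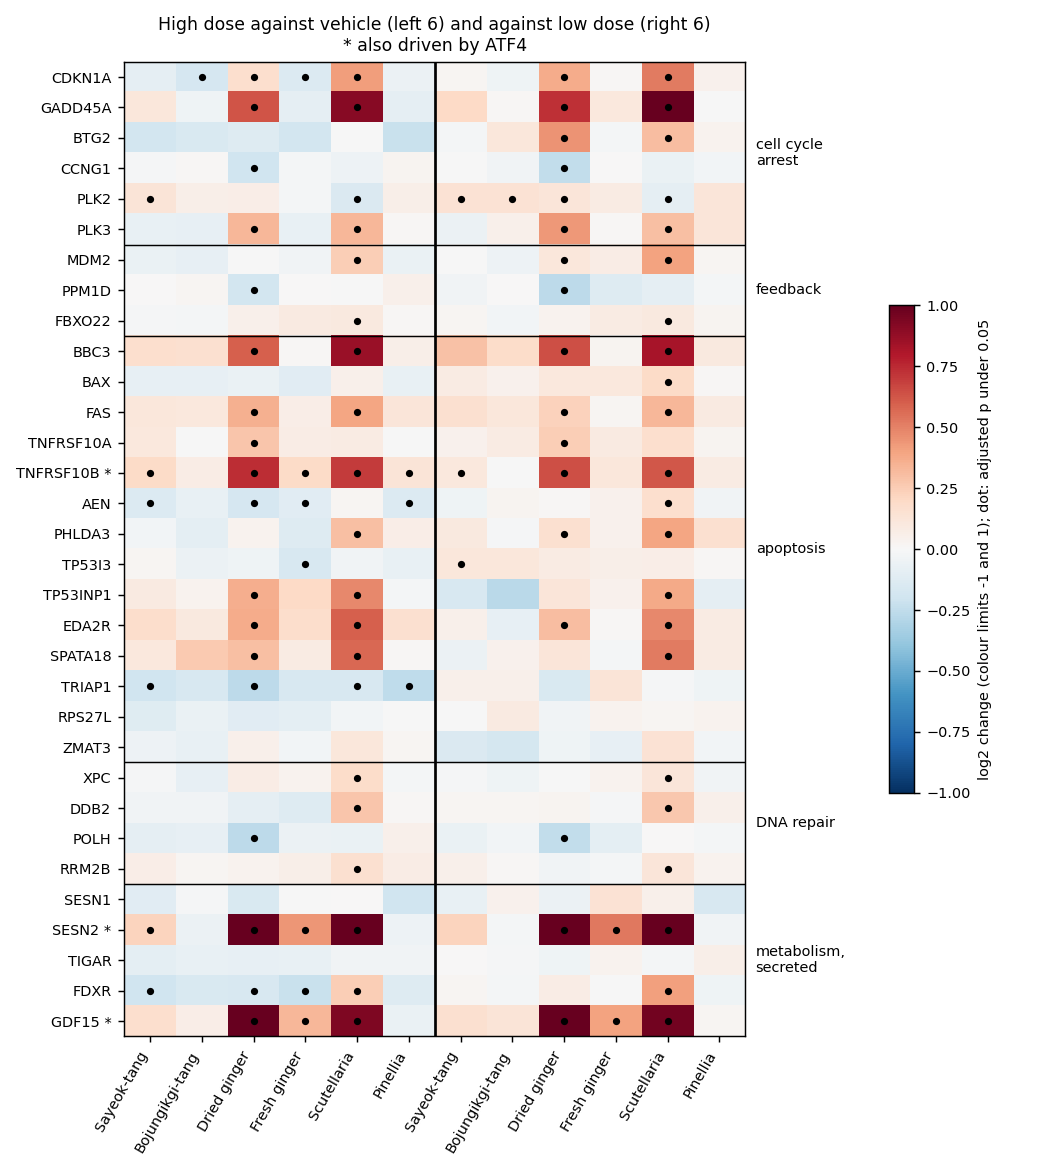
Log2 change of each member, by role, at the high dose of 6 extracts against vehicle (left) and against the low dose of the same extract (right); dots mark edgeR adjusted p under 0.05. Scutellaria and dried ginger carry most dots, 20 and 18 of 32 against vehicle, and Pinellia has none against its low dose.

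The dose changes of Scutellaria and dried ginger were then compared directly, as a difference of high-minus-low changes in 1 fit of both sets. This comparison was chosen after seeing the data, and the doses of the 2 extracts differ (190 against 7.6 µg/mL and 500 against 20 µg/mL). The change differed past the test for 5 of 32 members, 15.6% of them beside 5.38% of all 16903 genes (2.81% larger and 2.57% smaller): it was larger in Scutellaria for 4 and smaller for 1. MDM2 differed by 0.28 ± 0.05 (edgeR adjusted p = 7.55e-05), FDXR by 0.33 ± 0.07 (edgeR adjusted p = 0.00218) and DDB2 by 0.24 ± 0.06 (edgeR adjusted p = 0.0103). FDXR changed by 0.41 ± 0.05 in Scutellaria and by 0.07 ± 0.05 in dried ginger, and DDB2 by 0.27 ± 0.04 in Scutellaria and by 0.03 ± 0.05 in dried ginger. PHLDA3 differed by 0.23 ± 0.07, just inside the threshold (edgeR adjusted p = 0.0498), and lost the call in 11 of the 12 fits that left out 1 library, all but the one without high-dose Scutellaria replicate 2 (adjusted p = 0.0526 to 0.145). PLK2 differed by -0.21 ± 0.05 (edgeR adjusted p = 0.00209): it fell in Scutellaria, a call lost in 4 of the 6 fits that left out 1 library. PLK2 rose by 0.12 ± 0.04 in dried ginger, where the call was lost without high-dose replicate 3 or low-dose replicate 2 (adjusted p = 0.0630 and 0.0837).

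None of the 3 members also driven by ATF4 was among the 5. The difference was -0.03 for TNFRSF10B (95% interval -0.12 to 0.07), -0.17 for GDF15 (-0.35 to 0.01) and 0.25 for SESN2 (0.05 to 0.45; edgeR adjusted p = 0.178). For CDKN1A it was 0.15 (0.04 to 0.26; edgeR adjusted p = 0.136), and this passed the threshold without high-dose Scutellaria replicate 1 (adjusted p = 0.0479) or low-dose Scutellaria replicate 3 (adjusted p = 0.0423).

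**Figure D4:**
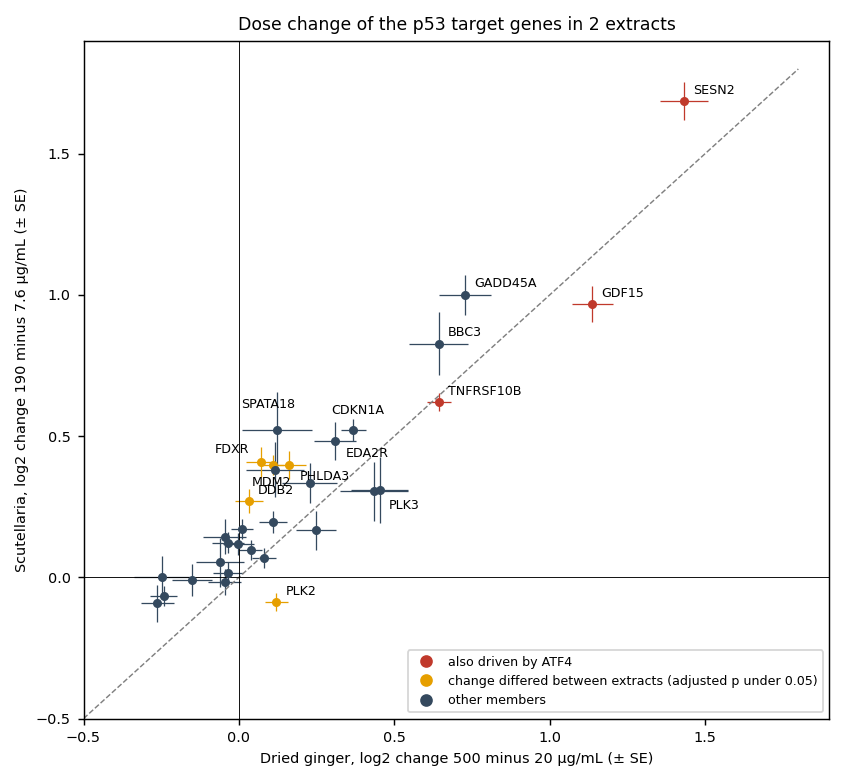
High-minus-low log2 change of each member in Scutellaria (vertical) against dried ginger (horizontal), with SE bars; the dashed line marks equal change. The 3 genes also driven by ATF4 (red) lie far out in both extracts, as do GADD45A and BBC3 of the other members. MDM2, FDXR, DDB2 and PHLDA3 (orange) lie above the line, with PLK2 (orange) below it.

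The promoter windows of the members were searched for p53 and ATF4 motifs. RefSeq windows of GRCh38.p14 that run from 250 bases before to 50 bases after a gene's start were given for 25 of the 32 members (37 windows, since some genes have several starts), and not for GADD45A, FBXO22, TNFRSF10A, TNFRSF10B, PHLDA3, TP53INP1 and RRM2B. The p53 consensus decamer, a palindrome that reads the same on both strands, was in 7 of these 37 windows (18.9%), beside 2329 of 35116 windows of all genes (6.63%). Of the 37 windows only that of DDB2 held a pair of decamers set 0 to 13 bases apart, as did 10 of all 35116 windows (0.0285%). The C/EBP-ATF composite motif TGATGNAA, searched on both strands, was in 1 of the 37 windows, that of PLK3 (2.7%, beside 3.62% of all windows). The stretches below show the sites of DDB2, FDXR and PLK2, whose dose change differed between the 2 extracts, of AEN and FAS as members whose change did not pass that test, and of PLK3 as the composite motif; capitals mark the motif, and each is written 5′ to 3′ on the gene's strand.
DDB2, chr11:47214974-47215003, plus strand: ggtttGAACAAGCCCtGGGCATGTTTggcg
FDXR, chr17:74872995-74873025, minus strand: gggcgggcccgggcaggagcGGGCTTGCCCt
PLK2, chr5:58460189-58460238, minus strand: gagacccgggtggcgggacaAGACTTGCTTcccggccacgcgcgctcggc
AEN, chr15:88621286-88621335, plus strand: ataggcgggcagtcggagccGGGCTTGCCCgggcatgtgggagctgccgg
FAS, chr10:88991289-88991338, plus strand: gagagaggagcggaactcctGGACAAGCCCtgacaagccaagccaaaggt
PLK3, chr1:44800224-44800271, plus strand: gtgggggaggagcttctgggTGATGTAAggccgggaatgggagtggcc
The DDB2 pair spans bases 6 to 26 after the start, the FDXR decamer bases -11 to -2, the AEN decamer -34 to -25, the FAS decamer -122 to -113, the PLK2 decamer -132 to -123 and the PLK3 motif -133 to -126, all counted from the RefSeq start. FDXR, with a decamer, rose between the doses of Scutellaria, while PLK2, also with a decamer, fell. That PLK2 call was lost in 4 of the 6 fits that left out 1 library and with no filter (edgeR adjusted p = 0.213). The part of a motif in the change of any gene was not tested. The windows of SESN1 and RPS27L also held a decamer, and neither gene was called against vehicle in either extract. No window of MDM2 held any of the 3 motifs. A match is a description of these letters and not a measured binding site.

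In fresh ginger at 500 µg/mL the members that rose were SESN2, GDF15 and TNFRSF10B, the 3 also driven by ATF4. Against vehicle 3 of the 32 were higher and 4 lower, 21.88% of the members beside 13.4% of all genes (6.21% higher and 7.16% lower), and of the other 29 none rose past the test and 4 fell. SESN2 had 20.2, 19.3 and 16.4 CPM in high-dose fresh ginger, against 14.0, 12.4 and 15.0 CPM in vehicle, with a log2 change of 0.44 ± 0.08 (1.36-fold; edgeR adjusted p = 0.000490). GDF15 had 26.8, 30.8 and 27.7 CPM, against 21.2, 21.7 and 25.3 CPM in vehicle (0.33 ± 0.07, 1.26-fold; edgeR adjusted p = 0.00149). TNFRSF10B had 174, 173 and 175 CPM, against 155, 151 and 151 CPM in vehicle (0.19 ± 0.04, 1.14-fold; edgeR adjusted p = 0.00120). In each of the 3 the treated libraries lay above all vehicle libraries. FDXR was lower by 0.22 ± 0.05 (edgeR adjusted p = 0.00201), TP53I3 by 0.16 ± 0.04 (0.00640), CDKN1A by 0.14 ± 0.04 (0.0223) and AEN by 0.12 ± 0.04 (0.0296).

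Of these 4 lower calls, that of FDXR was kept with each of the 6 libraries left out, while those of TP53I3, CDKN1A and AEN were lost without vehicle replicate 3, where the count of called members was 4. CDKN1A was also lost without vehicle replicate 2 or high-dose replicate 1 or 2 (adjusted p = 0.0584 to 0.0901), and AEN without any 1 of the 3 vehicle libraries or high-dose replicate 1 or 2 (adjusted p = 0.0662 to 0.105). Against the low dose of fresh ginger 2 members rose, 6.25% beside 3.67% of all genes (1.72% higher and 1.95% lower): SESN2 by 0.52 ± 0.08 (edgeR adjusted p = 0.000129) and GDF15 by 0.40 ± 0.07 (edgeR adjusted p = 0.000366) on the log2 scale. For CDKN1A the log2 difference between the doses was 0.0097 (95% interval -0.07 to 0.09) and for MDM2 it was 0.07 (0.00 to 0.14; edgeR adjusted p = 0.378). The 8 markers of other cell types summed to 26.2 to 29.02 CPM in high-dose fresh ginger, against 35.9 to 40.1 CPM in vehicle, with COL1A1 lower by 0.69 ± 0.07 on the log2 scale, and the 6 other than CD68 and COL1A1 summed to at most 0.144 CPM. Their part in the results of fresh ginger was not tested.

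Set directly against each other at 500 µg/mL, dried ginger had 12 members higher and 2 lower than fresh ginger, 43.75% of the members beside 22.5% of all genes (11.3% in each direction). TNFRSF10B differed by 0.54 ± 0.04, SESN2 by 0.84 ± 0.08, GDF15 by 0.71 ± 0.06 and GADD45A by 0.72 ± 0.08 on the log2 scale (edgeR adjusted p = 1.4e-11 to 1.53e-07). CDKN1A had 119.6, 124 and 124 CPM in dried ginger, against 98.4, 98.7 and 100.2 CPM in fresh ginger, a difference of 0.30 ± 0.04 (1.23-fold; edgeR adjusted p = 1.64e-06), and BBC3 differed by 0.59 ± 0.10. All of these groups were apart, with every dried ginger library above every fresh ginger library. For MDM2 the difference was 0.03 (95% interval -0.04 to 0.10; edgeR adjusted p = 0.601). CCNG1 was lower in dried ginger by 0.18 ± 0.04 (edgeR adjusted p = 0.00308) and PPM1D by 0.18 ± 0.05 (edgeR adjusted p = 0.0123). Of the 14 calls, 7 (EDA2R, FAS, PHLDA3, PLK3, PPM1D, TNFRSF10A and TP53I3) were lost when 1 or more of the 6 libraries were left out, and the count was 9 without fresh ginger replicate 1. For PLK3 the library was dried ginger replicate 2, for PPM1D dried ginger 1 or 2, for FAS dried ginger 2 or 3 or fresh ginger 1, and for TNFRSF10A dried ginger 3 or fresh ginger 1 or 2. For TP53I3 it was dried ginger 1 or 2 or fresh ginger 1 or 2, and for EDA2R and PHLDA3 any library but dried ginger 2 (adjusted p = 0.0510 to 0.137 over the 7).

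Pinellia at 500 µg/mL left most members near the vehicle level. TNFRSF10B was higher by 0.13 ± 0.03 (edgeR adjusted p = 0.00638), and TRIAP1 (by 0.26 ± 0.05, edgeR adjusted p = 0.00240) and AEN (by 0.13 ± 0.04, edgeR adjusted p = 0.0141) were lower, 9.375% of the members beside 8.93% of all genes (3.85% higher and 5.08% lower). The count was 5 without high-dose replicate 3, and AEN was lost without high-dose replicate 1 or 2 (adjusted p = 0.0727 and 0.0830). CDKN1A had 103.5, 104 and 107 CPM in high-dose Pinellia, against 108, 111 and 109 CPM in vehicle (log2 change -0.06, 95% interval -0.13 to 0.02). No member differed between the high and low doses of Pinellia by edgeR, beside 0.0663% of all genes (0.0603% higher and 0.00603% lower), while 3 had an unadjusted p under 0.05 and DESeq2 called 1. The log2 difference between the doses was 0.02 for MDM2 (95% interval -0.05 to 0.09) and -0.03 for SESN2 (-0.18 to 0.11).

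Scutellaria and Pinellia libraries belong to the same set, so their dose changes were also compared within it, at unequal doses. The high-minus-low change was larger in Scutellaria for 14 members and smaller for 1, 46.88% of the members beside 18.3% of all genes (8.76% larger and 9.54% smaller). SESN2 differed by 1.72 ± 0.10, GADD45A by 1.00 ± 0.11, GDF15 by 0.94 ± 0.09 and TNFRSF10B by 0.54 ± 0.04 on the log2 scale (edgeR adjusted p = 2.28e-16 to 1.7e-09). CDKN1A differed by 0.48 ± 0.05 (edgeR adjusted p = 1.24e-08), MDM2 by 0.38 ± 0.05 (edgeR adjusted p = 3.1e-07) and FDXR by 0.45 ± 0.08 (edgeR adjusted p = 2.09e-05). PLK2 differed by -0.21 ± 0.04 (edgeR adjusted p = 0.000577). The calls of BAX, PHLDA3 and TP53INP1 were lost without 1 of 2 libraries each (adjusted p = 0.0531 to 0.0836), which were Pinellia high-dose replicate 2 or Scutellaria high-dose replicate 1 for BAX, Pinellia high-dose replicate 1 or Scutellaria low-dose replicate 1 for PHLDA3, and Scutellaria high-dose replicate 2 or low-dose replicate 3 for TP53INP1.

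Among the formulas, Sayeok-tang at 500 µg/mL had 3 of 32 higher and 3 lower than vehicle, 18.75% beside 18.9% of all genes (9.39% higher and 9.53% lower). TNFRSF10B had 177, 172 and 174.5 CPM in high-dose Sayeok-tang, against 155, 151 and 151 CPM in vehicle (0.19 ± 0.03; edgeR adjusted p = 4.42e-05), without overlap. PLK2 was higher by 0.13 ± 0.03 (edgeR adjusted p = 0.00112), with 159.7, 157 and 162 CPM against 145, 145 and 146 CPM in vehicle. SESN2 was higher by 0.23 ± 0.08 (edgeR adjusted p = 0.0409) with overlapping libraries, a call lost with DESeq2 (adjusted p = 0.133) and without vehicle replicate 1 or 2 or high-dose replicate 2 or 3 (adjusted p = 0.0541 to 0.265). FDXR, AEN and TRIAP1 were lower by 0.20 ± 0.04, 0.13 ± 0.03 and 0.20 ± 0.05, and TRIAP1 was lost without high-dose replicate 2 (adjusted p = 0.0567). Neither CDKN1A (log2 change -0.09, 95% interval -0.16 to -0.02; edgeR adjusted p = 0.0546) nor GDF15 (0.17 ± 0.07; edgeR adjusted p = 0.0546) passed. CDKN1A did pass with the replicate block (adjusted p = 0.0497) and without high-dose replicate 2 (adjusted p = 0.0443), and GDF15 passed with no filter (adjusted p = 0.0376), without vehicle replicate 3 (adjusted p = 0.00493) and without high-dose replicate 3 (adjusted p = 0.0499).

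At 500 against 20 µg/mL of Sayeok-tang, PLK2 (0.14 ± 0.03, edgeR adjusted p = 0.00106), TP53I3 (0.12 ± 0.03, edgeR adjusted p = 0.0226) and TNFRSF10B (0.10 ± 0.03, edgeR adjusted p = 0.0486) were higher, 9.375% of the members beside 7.58% of all genes (3.82% higher and 3.77% lower). With low-dose replicate 1, low-dose replicate 3 or high-dose replicate 2 left out, 1 member remained called, TP53I3 was lost also without high-dose replicate 1, and TNFRSF10B also without high-dose replicate 1 or 3 (adjusted p = 0.0715 to 0.322). Bojungikgi-tang at 500 µg/mL, with 2 libraries, had CDKN1A lower than vehicle (97.1 and 97.8 CPM, against 108, 111 and 109 CPM in vehicle; log2 change -0.17 ± 0.04, edgeR adjusted p = 0.00786) and no other member called, 3.125% beside 3.73% of all genes (1.39% higher and 2.33% lower). That call was lost without either Bojungikgi-tang library (adjusted p = 0.0549 and 0.103), and 3 members were called without vehicle replicate 1. PLK2 was higher at the high than at the low dose of Bojungikgi-tang by 0.14 ± 0.04 (edgeR adjusted p = 0.0425; 3.125% of the members beside 0.712% of all genes, 0.257% higher and 0.455% lower) and was lost without any 1 of the 4 libraries (adjusted p = 0.129 to 0.409). Between Sayeok-tang and Bojungikgi-tang at 500 µg/mL no member was called by edgeR or DESeq2, beside 2.05% of all genes (1.09% higher and 0.957% lower), and 5 had an unadjusted p under 0.05. The largest of these differences was that of SESN2 (0.29, 95% interval 0.11 to 0.46; edgeR adjusted p = 0.102).

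At the low doses, the members called against vehicle were mostly lower, and most of them by small amounts. In Scutellaria and Pinellia the share of members called was near or below that of all genes. These comparisons all share the 3 vehicle libraries, so that a vehicle library that is high for a gene enters each of them. Sayeok-tang had 4 members lower and none higher, 12.5% of the members beside 8.34% of all genes called (3.58% higher and 4.76% lower). Fresh ginger had 6 lower, 18.75% beside 6.48% (2.84% higher and 3.63% lower), and dried ginger 5, 15.62% beside 3.6% (1.46% higher and 2.14% lower). Scutellaria had 3 lower, 9.375% beside 8.89% (3.87% higher and 5.02% lower), and Pinellia 1, 3.125% beside 5.51% (2.05% higher and 3.46% lower). Neither these 2 extracts nor the gingers had a higher member. Bojungikgi-tang had 3 lower and 1 higher, 12.5% beside 6.94% (2.75% higher and 4.19% lower). CDKN1A was lower at the low dose of Sayeok-tang (by 0.11 ± 0.03), Bojungikgi-tang (by 0.12 ± 0.04), fresh ginger (by 0.15 ± 0.04) and dried ginger (by 0.20 ± 0.04) on the log2 scale. FDXR was lower in Sayeok-tang, fresh ginger and dried ginger (by 0.21 to 0.23), BAX in these 3 and Scutellaria (by 0.15 to 0.22), and AEN in fresh ginger, dried ginger and Scutellaria (by 0.15 to 0.18). TRIAP1 was lower by 0.21 to 0.29 in Sayeok-tang, Bojungikgi-tang, fresh ginger and Pinellia, and TP53I3 by 0.17 in Bojungikgi-tang and by 0.22 in fresh ginger.

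Single genes went further. BTG2, an antiproliferative gene, had 8.73, 7.61 and 8.76 CPM at the low dose of dried ginger, against 13.4, 12.8 and 11.0 CPM in vehicle (log2 change -0.58 ± 0.09, edgeR adjusted p = 0.000574). MDM2 was lower at the low dose of Scutellaria by 0.15 ± 0.04 (edgeR adjusted p = 0.00450). At the low doses of dried and fresh ginger the main fit did not call MDM2. DESeq2 called it lower in both (log2 change -0.113 and -0.104, adjusted p = 0.00959 and 0.0171). So did 1 edgeR fit of all 60 libraries (adjusted p = 0.0201 and 0.0256). None of SESN2, GDF15 and TNFRSF10B was called at a low dose, though TNFRSF10B passed in Sayeok-tang without low-dose replicate 1 (edgeR adjusted p = 0.0327). Several of these counts depend on 1 library. Without vehicle replicate 1 there were 7 calls for Sayeok-tang and 5 for Scutellaria, which also had 5 without its low-dose replicate 3. Without vehicle replicate 3 there were 3 for dried ginger, 2 for Bojungikgi-tang and 0 for Pinellia. No call was left for Bojungikgi-tang without either of its low-dose libraries, or for Pinellia without low-dose replicate 2 or 3, and TRIAP1 in Pinellia was lost also without vehicle replicate 2 (adjusted p = 0.0720). The CDKN1A calls were lost without vehicle replicate 2 or 3 in Sayeok-tang, Bojungikgi-tang and fresh ginger, and without low-dose replicate 1 or 2 of Sayeok-tang, either library of Bojungikgi-tang and low-dose replicate 1 or 2 of fresh ginger (adjusted p = 0.0521 to 0.349). In Sayeok-tang and Bojungikgi-tang they were lost also with DESeq2 (adjusted p = 0.0508 and 0.0693) and in 1 fit of all 60 libraries (adjusted p = 0.0703 and 0.0946). Those of BAX were lost in dried ginger without any library but vehicle replicate 2, and in Scutellaria without low-dose replicate 2 or vehicle replicate 3 (adjusted p = 0.0606 to 0.239). The FDXR call in dried ginger was lost without vehicle replicate 3 (adjusted p = 0.0527), that of AEN without low-dose replicate 2 of fresh ginger (adjusted p = 0.0527) or 1 of Scutellaria (adjusted p = 0.0518), and that of TRIAP1 in fresh ginger without low-dose replicate 3 (adjusted p = 0.0522) or vehicle replicate 3 (adjusted p = 0.0552).

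Between the medium and low doses, the median log2 difference over the 32 members was 0.001 for Scutellaria and 0.007 for dried ginger, and 0.099 for Coptis with 1 library each. In Scutellaria, SESN2 had 12.8, 12.4 and 12.2 CPM at 7.6 µg/mL, 12.5, 12.7 and 13.7 CPM at 38 µg/mL and 37.4, 39.9 and 43.0 CPM at 190 µg/mL, and CDKN1A had 102, 95.7 and 108 CPM, then 101, 102 and 108 CPM, then 138, 152 and 149 CPM. The low and medium libraries overlapped for both genes, and the high-dose libraries stood apart. In dried ginger, GDF15 had 20.9, 21.2 and 21.4 CPM at 20 µg/mL, 23.0, 24.4 and 24.6 CPM at 100 µg/mL and 47.0, 48.9 and 44.5 CPM at 500 µg/mL, with all medium libraries above all low ones. Group means ordered upward from low over medium to high were seen for 23 of 32 members in Coptis, 17 in dried ginger, 16 in Scutellaria, 10 in Zizyphus, 9 in Sayeok-tang, 8 each in Bojungikgi-tang and Pinellia and 5 in fresh ginger. Ordered downward were 1 in Coptis, 6 in dried ginger, 2 in Scutellaria, 4 in Zizyphus, 7 each in Sayeok-tang and Bojungikgi-tang and 3 each in Pinellia and fresh ginger. The medium doses were not tested. These orders and medians were not computed over all genes, so they do not set the members apart from other genes. In Coptis and Zizyphus each dose is 1 library.

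Coptis, with 1 library per dose and no replicate check, had the highest levels of many members. SESN2 had 29.6, 40.3 and 56.1 CPM at 4.4, 22 and 110 µg/mL, against 12.4 to 15.0 CPM in vehicle, log2 ratios to the vehicle mean (after adding 0.5 CPM) of 1.07, 1.51 and 1.98. GDF15 had 27.8, 38.1 and 53.4 CPM, against 21.2 to 25.3 CPM in vehicle, and TNFRSF10B had 191, 232.5 and 301 CPM, against 151 to 155 CPM in vehicle. All 9 of these values lay above the vehicle range and each gene was ordered upward with dose. At the high dose 4 members, SESN2, GDF15 (1.22), BBC3 (1.19) and GADD45A (1.03), were at least 1 log2 unit from the vehicle mean and outside the vehicle range, beside 1.56% of the 10973 genes that averaged 5 CPM or more (0.866% higher and 0.693% lower). SESN2 was the 1 member past that size at the medium dose (beside 0.62% of genes, 0.383% higher) and at the low dose (beside 0.255%, 0.191% higher).

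CDKN1A had 119.5, 130 and 158 CPM in the Coptis libraries from low to high dose, against 108 to 111 CPM in vehicle. GADD45A had 20.9, 24.2 and 32.3 CPM, against 14.6 to 16.4 CPM in vehicle, and BBC3 had 8.23, 9.44 and 14.4 CPM, against 5.44 to 6.41 CPM in vehicle. MDM2 had 168, 181 and 207 CPM, against 177 to 184 CPM in vehicle, so that the low dose lay below, the medium inside and the high dose above the vehicle range. PLK2 had 155, 178 and 193 CPM, against 145 to 146 CPM in vehicle, and TP53I3 had 128, 148 and 182 CPM. At the high dose PHLDA3 (log2 ratio 0.27), DDB2 (0.19) and FDXR (0.11) were above the vehicle range, and CCNG1 (-0.19), POLH (-0.17) and PPM1D (-0.10) were the members with the most negative ratios. In all, 14 of 32 members were above and 7 below the vehicle range at the low dose, beside 32.8% and 35.7% of the 10973 genes. At the medium dose 15 were above and 6 below, beside 37.5% and 37.6%, and at the high dose 26 were above and 3 below, beside 38.9% and 43% of those genes. The median log2 ratio of the members was -0.011, 0.040 and 0.233 at the low, medium and high dose, beside -0.017 over genes of at least 5 CPM at the high dose. The medium and low Coptis libraries were those with the highest mitochondrial share of counts, and the part of that share in these values was not tested.

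Zizyphus, also with 1 library per dose, had no member past the same size at any dose, beside 0.118% of genes at the low, 0.1% at the medium and 0.1% at the high dose. At the low dose 7 members were above and 15 below the vehicle range, beside 31.2% and 33.4% of genes. At the medium dose these were 4 and 16, beside 29% and 31.2%, and at the high dose 6 and 10, beside 26.3% and 26.4%. CDKN1A had 104.5, 101 and 100.2 CPM at 20, 100 and 500 µg/mL, each below the vehicle range.

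**Figure D5:**
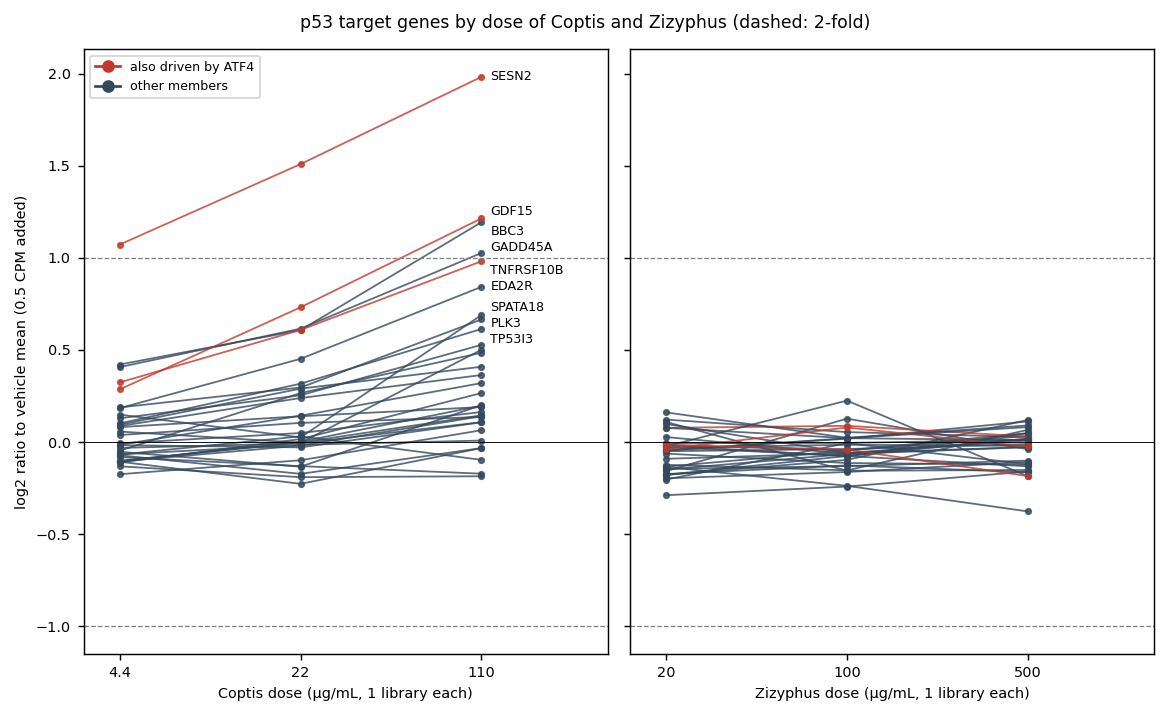
Log2 ratio of each member to the vehicle mean in the single libraries of Coptis (left) and Zizyphus (right) from low to high dose; 1 line per member, dashed lines at 1 and -1. SESN2 reached 1.98 in high-dose Coptis and 4 members passed 1 there, whereas no Zizyphus value passed either line.

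Among 33 further p53 targets that passed the filter, 14 were higher and 7 lower in high-dose Scutellaria and 10 higher and 5 lower in high-dose dried ginger, shares of 63.6% and 45.45% beside the 40.3% and 39.2% of all genes. LIF, a cytokine, rose by 0.43 ± 0.04 in Scutellaria and by 0.35 ± 0.05 in dried ginger on the log2 scale. TGFA, an EGF receptor ligand, rose by 0.73 ± 0.11 in Scutellaria and by 1.35 ± 0.11 in dried ginger, and the replication clamp gene PCNA fell by 0.32 ± 0.04 in Scutellaria and by 0.39 ± 0.05 in dried ginger. In high-dose fresh ginger 2 of the 33 were higher and 1 lower, beside 6.21% of all genes higher and 7.16% lower.

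Of 12 cell cycle genes repressed through DREAM, 11 fell in high-dose Scutellaria, 12 in high-dose dried ginger and 9 in high-dose fresh ginger, beside 20%, 19% and 7.16% of all genes lower, with no member of the list higher, and their median log2 changes were -0.48, -0.61 and -0.22. CCNB1, the mitotic cyclin, had 163 CPM in high-dose Scutellaria, 136 CPM in high-dose dried ginger and 198.5 CPM in high-dose fresh ginger, against 243 CPM in vehicle. Of the 12, 6 fell in high-dose Sayeok-tang, 3 in high-dose Pinellia and 2 in high-dose Bojungikgi-tang, beside 9.53%, 5.08% and 2.33% of all genes. At the low dose of each of these 6 extracts 4 were already lower than vehicle, beside 2.14% to 5.02% of all genes. High against low dose, 12 were lower in dried ginger, 11 in Scutellaria and 3 in Sayeok-tang, beside 16%, 15.6% and 3.77% of all genes. None was called in fresh ginger, Pinellia or Bojungikgi-tang, beside 1.95%, 0.00603% and 0.455% lower. In high-dose Coptis all 12 lay below the vehicle range, beside 43% of genes, with a median log2 ratio of -0.705. In high-dose fresh ginger the log2 change of CDKN1A against vehicle was -0.14 ± 0.04, a call lost in 4 of the 6 fits that left out 1 library (edgeR adjusted p = 0.0584 to 0.0901). The part of CDKN1A in the lower levels of these genes was not tested in any group.

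Of 12 genes of the ATF4 response, 11 rose and 1 (CHAC2) fell in both high-dose Scutellaria and high-dose dried ginger, and 10 rose in high-dose fresh ginger and 6 in high-dose Sayeok-tang, beside 20.2%, 20.2%, 6.21% and 9.39% of all genes higher in these 4 groups. TRIB3, a pseudokinase, had 272 CPM in high-dose Scutellaria and 202.5 CPM in high-dose dried ginger, against 69.5 CPM in vehicle. DDIT3, which encodes CHOP, rose by 1.84 ± 0.07 in Scutellaria and by 1.09 ± 0.07 in dried ginger on the log2 scale, and its dose change differed between the 2 extracts by 0.76 ± 0.10 (edgeR adjusted p = 3.45e-07). High-dose Bojungikgi-tang had none of the 12 called, beside 3.73% of all genes, and high-dose Pinellia had 2 lower, beside 5.08% of all genes lower. In Coptis, with 1 library per dose, 8 of the 12 were at least 2-fold above the vehicle mean and outside the vehicle range at the high dose. At the medium and low doses these were 7 and 3. The shares of genes of at least 5 CPM were 0.866%, 0.383% and 0.191% from high to low dose. No Zizyphus library had any of the 12 past that size.

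The counting bears on a few members. Values that were not whole, which arise when reads are shared between genes, were seen in at least 1 library for 7 members: FBXO22 (60 libraries), MDM2 and XPC (58 each), TNFRSF10A (50), SESN1 (49), FAS (23) and PHLDA3 (1). Annotated exons of 4 members (MDM2, BBC3, PHLDA3 and TIGAR) overlap another gene on the same strand and those of 13, CDKN1A among them, a gene on the opposite strand. The library kit keeps strand, but the strand setting used in counting is not given in the sources used here, so reads of such pairs cannot be told apart from the table alone.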

How the data were processed

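RNA of A549 cells was sequenced as 100 bp paired-end reads from MGIEasy RNA Directional libraries, per the labels. The authors deposited expected counts per Ensembl gene and library, and the submitters' processing notes name FastQC 0.11.9, Trim Galore 0.6.5, STAR 2.7.3a, RSEM 1.3.3 and the hg38 build; the annotation release and the strand setting of counting are not given in the sources used here. Of 269 value columns, 209 belong to no sample described here and were not used. Of the non-zero values, 24.4% were not whole (beyond 1e-06), and the expected counts were rounded to whole numbers for the tests. Groups were taken from the sample titles. Symbols were given to 56558 and exon lengths to 57055 of the 60675 gene IDs from GENCODE 29, which may not be the release the authors used.

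Per set of 2 extracts that share a set number (Sayeok-tang with Bojungikgi-tang, both gingers, Scutellaria with Pinellia), all doses and vehicle were fitted together with edgeR 4.0.16 (limma 3.58.1, R 4.3.3): filterByExpr with a minimum count of 10, TMM scaling, 1 mean per group, robust quasi-likelihood F-tests and Benjamini-Hochberg adjustment over all genes tested, called at an adjusted p under 0.05. SE is the size of the log2 change divided by the square root of F, and 95% intervals use the normal quantile. Levels are CPM with TMM factors over all 60 libraries. The 1-library groups were described by log2 ratios to the vehicle mean after adding 0.5 CPM, with a size rule of 2.0-fold outside the vehicle range among genes of at least 5 CPM. Depths of 17.51 to 38.54 M counts gave at least 58 counts per member and library. The scripts were tested on simulated counts.

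Alternatives were other size factors, DESeq2 1.42.0, no filter, a replicate block, 1 fit of all 60 libraries, other pseudocounts and leaving out each library. The replicate numbers come from the labels. Among comparisons with 3 pairs, the deviations of same-numbered libraries from their group means correlated over 0.1 in every pair between high and low fresh ginger (0.161, 0.237 and 0.324) and between dried and fresh ginger (0.220, 0.187 and 0.368), and there the block left the counts at 2 and 14 calls. The 2 pairs of high-dose Bojungikgi-tang and vehicle also did so (0.157 and 0.125), too few to decide pairing, and the block left that count at 1. The members and lists were chosen with earlier results of these data known. CDKN1A, MDM2, SESN2, GDF15 and TNFRSF10B in every comparison, with up to 5 further called members in each direction by lowest p, make up the named values. The alternatives were run for all of them, but not all are printed here, least of all those at the low doses. Members described beyond these, and genes of the other lists, were chosen for their role or after their values were seen. 1 listed gene outside the 32 members, and the counts of its list, are not reported here.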

Additional observations from a re-analysis of the deposited data

Results flagged for a closer look

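Named values in which the effect of an extract differed from that of another by a direct test are collected here. All are log2 differences with an edgeR adjusted p under 0.05. The collection is not complete. In all, 14 members were called between the gingers, BBC3 among them, and 15 between Scutellaria and Pinellia, FDXR among them. Between dried and fresh ginger at 500 µg/mL, the difference (dried minus fresh) was 0.54 for TNFRSF10B, 0.84 for SESN2, 0.71 for GDF15, 0.72 for GADD45A, 0.30 for CDKN1A, -0.18 for CCNG1 and -0.18 for PPM1D. Between the high-minus-low changes of Scutellaria and Pinellia it was 1.72 for SESN2, 0.54 for TNFRSF10B, 0.94 for GDF15, 1.00 for GADD45A, 0.48 for CDKN1A, 0.38 for MDM2 and -0.21 for PLK2. Between the high-minus-low changes of Scutellaria and dried ginger, a comparison chosen after seeing the data, it was 0.28 for MDM2, -0.21 for PLK2, 0.33 for FDXR, 0.24 for DDB2 and 0.23 for PHLDA3. The PHLDA3 call was lost in 11 of the 12 fits that left out 1 library and with the replicate block (edgeR adjusted p = 0.0536). The PPM1D call between the gingers was lost in 2 of 6 such fits and with no filter (edgeR adjusted p = 0.0723). The doses of the extracts in the last 2 comparisons are unequal.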

How the results depend on the processing

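No named value changed direction with a call on either side, and other size factors moved none past the threshold. Of 165 named values, 1883 alternatives left 1753 on the same side of the threshold, moved 110 out of it and 20 into it, and 95 of the 110 came from leaving out 1 library. Of the 100 named values called in the main fits, 71 kept the call under every alternative and 29 lost it under at least 1. Counts of called members that moved by over 1.5 times were as follows, with the cause not tested. DESeq2 called 1 member (main count 3) between the doses of Sayeok-tang and 1 (0) between those of Pinellia. Without the filter, 2 (1) were called for high-dose and 0 (1) for the doses of Bojungikgi-tang, 1 (0) between the formulas, 8 (3) for low-dose Scutellaria and 4 (1) for low-dose Pinellia. In 1 fit of all 60 libraries, 1 (4) was called for low-dose Bojungikgi-tang, 11 (7) for high-dose and 10 (6) for low-dose fresh ginger. Leaving out each library gave, for high dose against vehicle, low dose against vehicle and high against low, 5 to 8, 3 to 7 and 1 to 4 calls for Sayeok-tang, 0 to 3, 0 to 4 and 0 to 0 for Bojungikgi-tang, 15 to 19, 3 to 5 and 13 to 16 for dried ginger, 4 to 8, 4 to 7 and 2 to 2 for fresh ginger, 18 to 20, 2 to 5 and 16 to 21 for Scutellaria, and 2 to 5, 0 to 1 and 0 to 0 for Pinellia. It gave 0 to 0 between the formulas, 9 to 12 between the gingers, 14 to 16 between Scutellaria and Pinellia, and 4 to 6 between Scutellaria and dried ginger. With the replicate block the counts were 19 for high-dose dried ginger, 20 for high-dose Scutellaria, 22 between its doses and 4 between Scutellaria and dried ginger, where PHLDA3 was lost (adjusted p = 0.0536); no count moved by over 1.5 times with the block. In most comparisons the numbers were not shown to pair libraries. Between the doses of Bojungikgi-tang the same-numbered libraries deviated in opposite directions (correlation -0.104), and with crossed numbers the block again called 1 member. Depth limits the low members most: the SE of the log2 change in high-dose Scutellaria was 0.13 for SPATA18, the member with the fewest counts, and 0.03 for TNFRSF10B.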
